A study of Mus musculus with 2 samples.

Results

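Mir208a, Mir208b and Mir499 are miRNA genes that lie inside introns of the myosin heavy chain genes Myh6, Myh7 and Myh7b, in that order. They were taken by symbol from the GENCODE M21 annotation and make up 3 of the 2202 miRNA genes counted in microRNA sequencing of mouse heart. The libraries came from hearts of B6CASTF1/J males aged 4 days, the first-generation cross of C57BL/6J and CAST/EiJ, and the labels name no treatment or engineered allele. There was 1 group of 2 libraries, called replicates 1 and 2 in the labels, with 1 library per animal as far as the animals' own numbers tell. Both libraries carry the same donor identifier, so the spread between them may be technical. The labels say heart tissue and do not say whether the whole organ was taken. Heart muscle cells were measured together with the other cells of this tissue. Fewer cells of a type therefore cannot be told apart from less RNA per cell.

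The myosin heavy chain proteins drive contraction, and their genes mark the fibre type and the age of the heart. Myh6 encodes the fast alpha chain that dominates the adult mouse ventricle, Myh7 encodes the slow beta chain that dominates before birth and returns under stress, and Myh7b is an older relative expressed at low protein levels in heart. Each host gene carries a miRNA in an intron, and the miRNA is cut from the same primary transcript. miR-208a, miR-208b and miR-499 are known as regulators of myosin isoform choice and of the response of the heart to load, and in mouse heart loss of miR-208a is known to lower miR-499.

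The mature arms are shown first because they show how alike these miRNAs are in sequence, which played no part in choosing them. A miRNA recognises its targets mainly through its seed, bases 2 to 8 from the 5′ end, which is in capitals. The sequences are from RefSeq on GRCm38.p6, where all 3 members were found, and the arm listed for each is the one usually taken as the active strand.
miR-208a-3p: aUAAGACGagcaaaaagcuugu
miR-208b-3p: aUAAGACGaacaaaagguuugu
miR-499-5p: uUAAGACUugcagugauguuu

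miR-208a-3p and miR-208b-3p carry one seed, UAAGACG, and are identical at 19 of 22 positions. Counting from 1 at the 5′ end with miR-208a-3p as the reference, the differences are G10A, A16G and C18U, all outside the seed. miR-499-5p has the seed UAAGACU, which differs from the other seed at its last base (G8U) and shares bases 2 to 7, UAAGAC. Against miR-208a-3p it is identical at 12 of 21 positions, and against miR-208b-3p at 10 of 21. Among the 1679 mature arms in the RefSeq table, only these 3 hold UAAGAC at bases 2 to 7 (0.179%), and only the miR-208 pair holds UAAGACG at bases 2 to 8 (0.119%). The opposite arms of the miR-208 pair also share a seed with each other, AGCUUUU, whereas that of miR-499-3p is AACAUCA.
miR-208a-5p: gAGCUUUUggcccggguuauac
miR-208b-5p: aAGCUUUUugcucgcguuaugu
miR-499-3p: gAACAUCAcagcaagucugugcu

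The hairpins show where each active arm sits, and they are the features over which reads were counted. The active arm is in capitals.
Mir208a: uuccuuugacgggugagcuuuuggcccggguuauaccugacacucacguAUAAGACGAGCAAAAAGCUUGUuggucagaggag
Mir208b: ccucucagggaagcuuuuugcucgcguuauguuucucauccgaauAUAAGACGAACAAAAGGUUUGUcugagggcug
Mir499: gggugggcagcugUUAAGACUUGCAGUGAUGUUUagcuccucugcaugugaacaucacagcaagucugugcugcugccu

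The active arm lies on the 3′ side of the hairpin in Mir208a and Mir208b and on the 5′ side in Mir499. The hairpins are 83, 77 and 79 bases long in that order. RNAfold gave minimum free energies of -37.6, -32.2 and -42.5 kcal/mol. Per base, 13.8% of the 441 tested hairpins had a lower (more stable) value than Mir499, against 38.5% for Mir208a and 57.6% for Mir208b. GC content was 49.4% in Mir208a, 45.5% in Mir208b and 51.9% in Mir499, so the Mir208b hairpin was the least GC-rich and the least stable of the 3. A gene's count adds up both arms and any read within the hairpin, so the counts do not show which arm was sequenced.

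No near-identical copy of these hairpins was found among annotated miRNA genes. None of the 3 hairpins shares a 20-base window with another annotated hairpin on its strand, whereas 49.2% of the 2202 hairpins do. The longest run that Mir208a and Mir208b have in common is 10 bases, and Mir499 has 6 in common with each. Copies elsewhere in the genome were not searched for.

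Mir208a (ENSMUSG00000065432.1) lies at chr14:54949060-54949142 on the minus strand of mm10, in intron 29 of both Myh6 coding transcripts annotated across it, which have 39 exons. Mir208b (ENSMUSG00000077928.1) lies at chr14:54975700-54975776, also on the minus strand, in intron 31 of 41-exon Myh7. The 2 hairpins are 26557 bases apart, with Mir208b upstream. Mir499 (ENSMUSG00000076312.1) lies at chr2:155622880-155622958 on the plus strand, in intron 19 of 42-exon Myh7b. All 3 lie on the strand of their host, and no other gene apart from small RNA classes overlaps them in GENCODE M21.

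**Figure D1:**
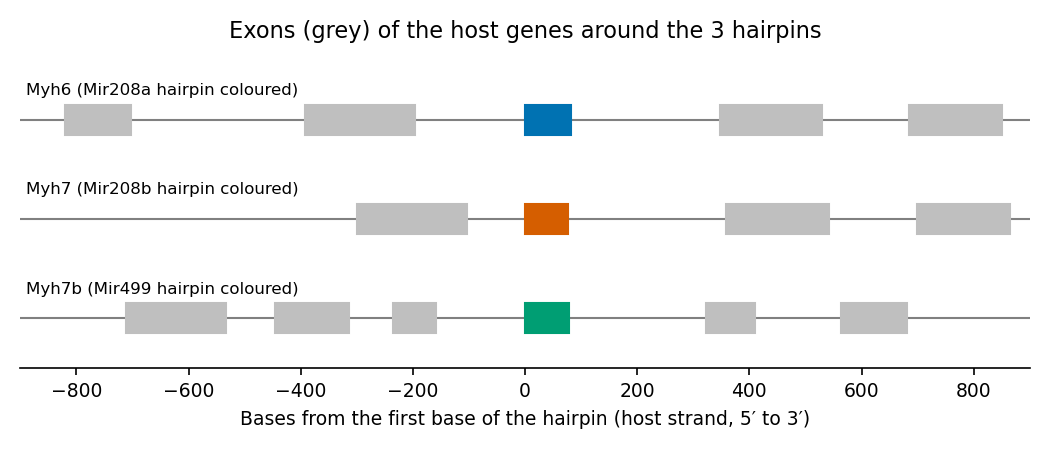
Exons of Myh6, Myh7 and Myh7b (grey) around the hairpins of Mir208a, Mir208b and Mir499 (coloured), with distance in bases from the first base of the hairpin on the x axis. The introns are 542, 461 and 481 bases long, and the exons that flank Mir208a and Mir208b have the same lengths.

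The introns are of like size and layout. They measure 542 bases in Myh6, 461 in Myh7 and 481 in Myh7b, and the hairpin starts 195, 102 and 158 bases after the upstream exon. The exon before the intron is 197 bases long and the exon after it 184 bases long in both Myh6 and Myh7. In Myh7b these exons are 77 and 88 bases long. The map of exons around the hairpins shows this layout, in which each hairpin lies closer to the exon before it than to the exon after it.

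The libraries held 4196577 sense counts (reads on the gene's strand) in replicate 1 and 3801738 in replicate 2, and levels are given as CPM, which scale each count to this total. A single read was worth 0.238 and 0.263 CPM. Multi-mapped reads, 38.1% and 42.3% of the reads in the tables, are in no gene count. Replicate values are followed by exact Poisson intervals at the 95% level, which cover counting error only, since reads of an amplified library are not independent molecules.

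Mir499, the Myh7b miRNA, had 24317 sense counts in replicate 1 and 17613 in replicate 2. These are 5794 CPM (5722 to 5868) and 4633 CPM (4565 to 4702), a mean of 5214 ± 821 CPM (SD, n = 2). It was the highest of the 3 in both libraries, at rank 34 and 35 of the 2202 genes.

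Mir208b, the miRNA of the fetal and stress myosin Myh7, had 21693 and 11273 sense counts. Its levels were 5169 CPM (5101 to 5238) and 2965 CPM (2911 to 3020), with a mean of 4067 ± 1558 CPM. Its SD came to 38.3% of the mean, the widest of the 3, and its rank moved from 35 in replicate 1 to 46 in replicate 2.

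Mir208a, the miRNA of the adult myosin Myh6, had 8774 and 4788 sense counts. Its levels were 2091 CPM (2047 to 2135) and 1259 CPM (1224 to 1296), with a mean of 1675 ± 588 CPM. It was the lowest of the 3 in both libraries, at ranks 57 and 61.

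**Figure D2:**
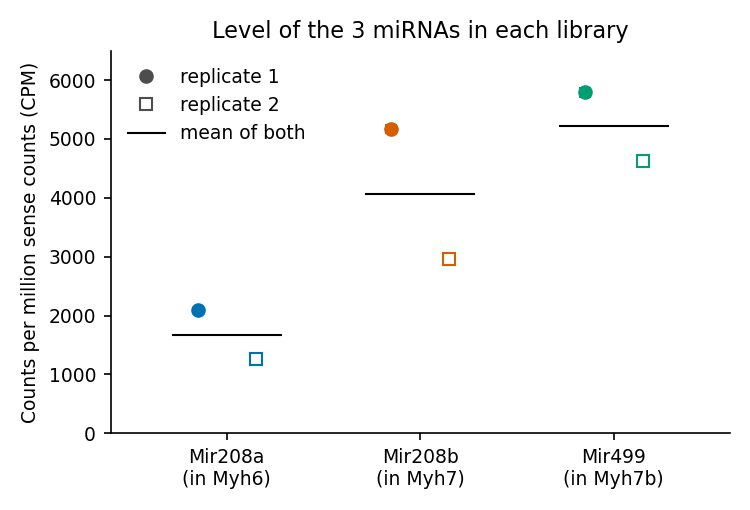
CPM of Mir208a, Mir208b and Mir499 (y axis) in replicate 1 (filled circles) and replicate 2 (open squares), with the mean of both as a line and exact Poisson intervals that are about as small as the symbols. Replicate 1 lies above replicate 2 for each gene, and the order from Mir499 down to Mir208a is the same in both libraries.

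Nearly every read was on the strand of the host transcript. Counts on the opposite strand were 0 in both libraries for Mir208a and Mir499, and 1 and 0 for Mir208b. Together the 3 genes held 54784 and 33674 sense counts, or 1.31% and 0.886% of all sense counts in replicates 1 and 2, with 95% Wilson intervals of 1.29 to 1.32 and 0.876 to 0.895. Among the 722 miRNA genes in introns of protein-coding hosts, Mir499 ranked 14, Mir208b 16 and Mir208a 25 by mean CPM. Of these 722 genes, 169 reached 10 counts over both libraries, and 1458 of all 2202 genes had 0 counts in both. Multi-mapped reads are in no gene count, so the ranks and shares hold only for reads assigned to a gene.

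The order of levels was the same in both libraries, although the means of neighbours in it overlap within their SDs for Mir499 and Mir208b. Within a library the comparison does not depend on the library total. Mir499 exceeded Mir208b by 1.12-fold in replicate 1 (95% Clopper-Pearson interval 1.10 to 1.14) and by 1.56-fold in replicate 2 (1.53 to 1.60), a mean log2 ratio of 0.40 ± 0.34. Its distance from 0 was thus little larger than the spread between the libraries.

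The Myh6 miRNA had fewer reads than the Myh7 miRNA in both libraries. The ratio of Mir208a to Mir208b reads was 0.404 (0.395 to 0.415) in replicate 1 and 0.425 (0.411 to 0.439) in replicate 2. Its mean log2 value of -1.27 ± 0.05 became -1.38 per base of hairpin. Each is a ratio between reads of unlike sequences, and any difference in how readily each sequence is captured in a library was not tested.

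The libraries differed in how the reads were divided among the 3 genes. Of the reads of the 3 genes, Mir499 took 44.4% in replicate 1 and 52.3% in replicate 2, with 95% Wilson intervals of 44.0 to 44.8 and 51.8 to 52.8. Mir208b took 39.6% (39.2 to 40.0) and 33.5% (33.0 to 34.0). Mir208a took 16.0% (15.7 to 16.3) and 14.2% (13.8 to 14.6). The miR-208 pair had the smaller share in replicate 2, and Mir499 the larger.

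**Figure D3:**
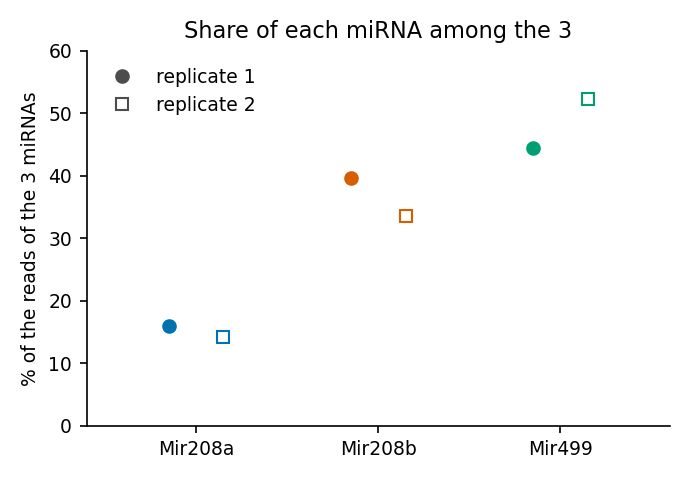
Share of each gene in the reads of Mir208a, Mir208b and Mir499 (y axis, percent) in replicate 1 (filled circles) and replicate 2 (open squares), with 95% Wilson intervals about as small as the symbols. The Mir499 share is 44.4% and 52.3%, and the shares of Mir208a and Mir208b are lower in replicate 2.

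The neighbours on chromosome 14 kept nearly the same proportion to each other, while Mir499 shifted against both. From replicate 1 to replicate 2 the log2 ratio of Mir208a to Mir208b changed by 0.07 (95% interval 0.01 to 0.13; two-sided Fisher's exact test, adjusted p = 0.023 over the 3 pairs). That of Mir499 to Mir208a changed by 0.41 (0.35 to 0.47; Fisher's exact test, adjusted p = 1.05e-43). That of Mir499 to Mir208b changed by 0.48 (0.44 to 0.52; Fisher's exact test, adjusted p = 2.68e-105). All 3 proportions therefore differed beyond counting error, which is the only error in this test. As a description of these libraries, 5.75% of the 29403 pairs among the 243 genes averaging 100 counts or more lay as close in their library ratios as Mir208a and Mir208b. For Mir499 and Mir208a that share was 31.9%, and for Mir499 and Mir208b 37.0%, with a median gap over all pairs of 0.68.

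Set against the whole library, all 3 genes had lower CPM in replicate 2. The log2 ratio of replicate 2 over replicate 1, on log2(CPM + 1), was -0.80 for Mir208b, -0.73 for Mir208a and -0.32 for Mir499. These were 1.74-fold, 1.66-fold and 1.25-fold lower levels. All 3 passed a two-sided Fisher's exact test of the gene's counts against all other sense counts. Its p-values were adjusted by the Benjamini-Hochberg method over the 441 genes that had at least 10 counts in the libraries together. Adjusted p was 2.47e-181 for Mir208a and 6.00e-114 for Mir499, and for Mir208b it was too small for the computation to hold and came out as 0. Of all tested genes 56.9% passed, 36.5% as lower and 20.4% as higher in replicate 2, so a call was common at this depth. The median of the 3 ratios was -0.73, beside -0.26 over all tested genes.

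For Mir499 the difference depended on how the libraries were scaled. TMM scaling (trimmed mean of M-values) raised the ratios of CPM by 0.30 on the log2 scale and DESeq2 scaling by 0.31, slightly less on log2(CPM + 1) for genes of low level. Mir499 then had log2 ratios of -0.018 and -0.010 (Fisher's exact test, adjusted p = 0.298 and 0.601) and was no longer called. The miR-208 pair was still called as lower, beside 24.0% of tested genes lower with TMM (54.6% in either direction) and 23.6% lower with DESeq2 (54.4%). Mir208b kept -0.50 with TMM and -0.49 with DESeq2, and Mir208a -0.43 and -0.42. Less the median of all tested genes, the value was -0.54 for Mir208b, -0.47 for Mir208a and -0.06 for Mir499 by total counts, and -0.49, -0.42 and -0.01 with either TMM or DESeq2.

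**Figure D4:**
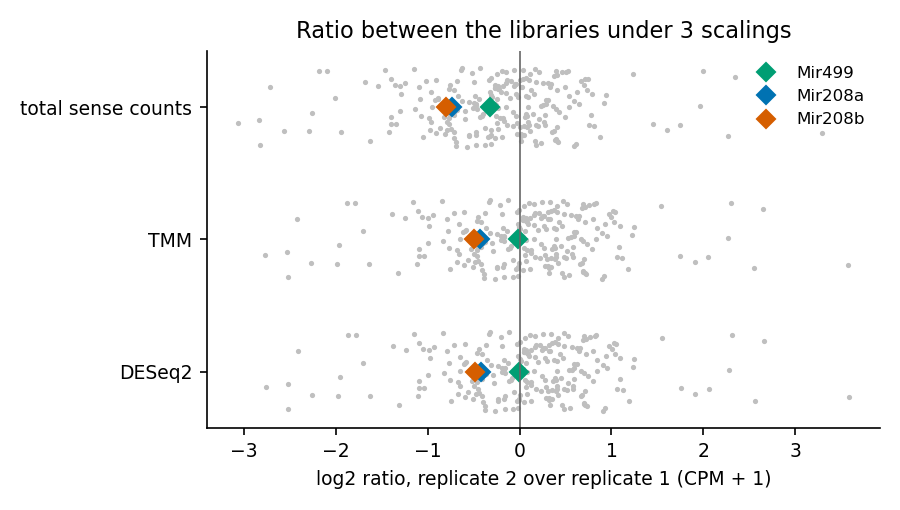
Log2 ratio of replicate 2 over replicate 1 (x axis, on CPM + 1) for the 243 genes averaging 100 counts or more (grey, spread vertically for legibility) and for Mir208a, Mir208b and Mir499 (diamonds), with libraries scaled by total sense counts, TMM or DESeq2. Mir208a and Mir208b stay left of 0 in each row, while Mir499 moves from -0.32 to near 0.

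Differences of this size were frequent between the 2 libraries. Of the 243 genes averaging 100 counts or more, 24.3% were at least as far apart as Mir208b, 30.9% as Mir208a and 60.9% as Mir499 with libraries scaled by total sense counts. These shares rose to 45.3%, 52.7% and 97.9% with TMM scaling, and to 45.3%, 53.5% and 98.4% with DESeq2 scaling. They measure distance from a log2 ratio of 0. Measured from the median ratio of the 243 genes, the shares hardly changed with scaling. In the same order they were 37.9%, 44.4% and 85.2% by total counts, and 38.7%, 45.3% and 86.4% with TMM. With DESeq2 they were 38.7%, 45.7% and 86.4%. The spread between the libraries was 0.377 as the coefficient of variation that edgeR calls biological (common dispersion over 344 genes), though it may be technical. With that spread as the error, edgeR's exact test called none of the 3 members, with unadjusted p of 0.527 for Mir208b, 0.587 for Mir208a and 0.981 for Mir499. It called 2 of 441 genes (0.454%), and 23 had an unadjusted p under 0.05. That error is estimated from the very libraries being compared, which by construction leaves few calls.

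The other muscle miRNAs gave far fewer reads assigned to a gene. The list holds Mir1a-1, Mir1a-2, Mir133a-1 and Mir133a-2, which encode the main heart muscle miRNAs, and Mir1b, Mir133b, Mir206 and Mir486, of which Mir206 is known from skeletal muscle and Mir486 also from red blood cells. Its 8 genes together had 912 and 797 sense counts, so the 3 myosin-intron genes held 60.1 and 42.3 times as many. Of the 8, 6 share 20-base windows with other hairpins, and reads that match several places are in no gene's count. Their levels are therefore lower limits, and the gap is no measure of miR-1 or miR-133 abundance.

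Mir206 shares no such window, and its 123 and 145 counts gave 29.3 and 38.1 CPM. Mir486, in Ank1, was the highest of the list at 142 and 103 CPM. Mir1a-2 had 33.1 and 54.4 CPM, and Mir133a-1 had 2.62 and 7.63 CPM. By Fisher's exact test with the same adjustment over 441 genes, 2 of the 7 tested list genes were higher in replicate 2 (Mir1a-2 and Mir133a-1), 1 was lower (Mir486) and 4 did not pass, beside the 56.9% called among all tested genes. The list's median log2 ratio over its 7 tested genes was 0.37, the value of Mir206, which did not pass. For the myosin-intron genes the median was -0.73. Mir1a-1, Mir133a-1, Mir133a-2 and Mir133b had 29 or fewer counts in each library, so the list's median rests partly on low counts. Summed over the list, the level was 217 CPM in replicate 1 and 210 CPM in replicate 2. In the plot of both libraries the list genes lie on either side of the diagonal and the 3 myosin-intron genes below it.

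**Figure D5:**
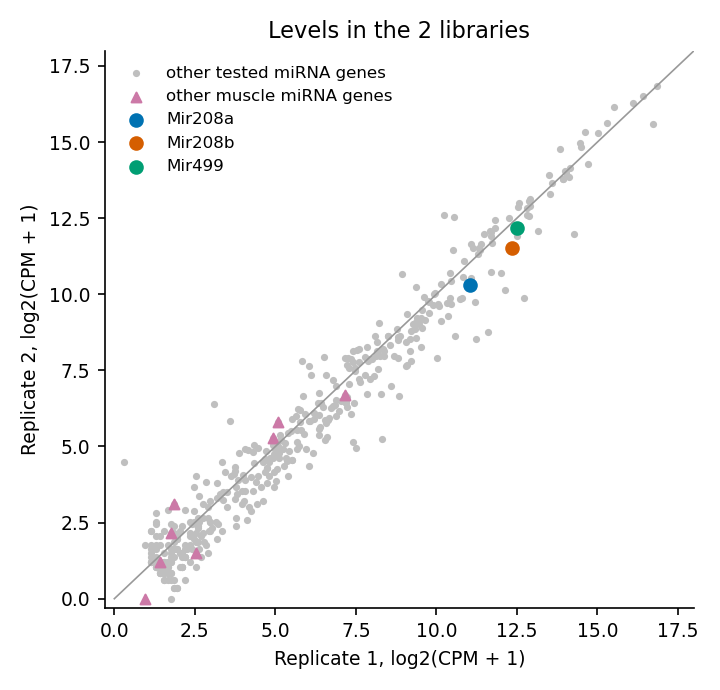
Level in replicate 1 (x axis) and replicate 2 (y axis) as log2(CPM + 1) for the 441 tested miRNA genes (grey), the 8 other muscle genes (triangles, including the untested Mir1b) and Mir208a, Mir208b and Mir499 (coloured), with the line of equal levels. The 3 coloured points lie below the line and far above all triangles.

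Markers of other cell types also differed between the libraries. The smooth muscle and pericyte markers Mir143, Mir145a and Mir145b summed to 48576 and 79469 CPM, and the 2 tested ones were both higher in replicate 2. The endothelial markers Mir126a and Mir126b summed to 109200 and 49330 CPM, with Mir126a lower in replicate 2. The 8 fibroblast and matrix markers summed to 19031 and 16657 CPM, with 1 higher, 4 lower and Mir199a-1 at 0 counts in both libraries. Mir199a-1, Mir199a-2, Mir29b-1, Mir29b-2 and Mir29c share 20-base windows with other hairpins, and reads that match several places are in no gene's count. The levels of these genes are therefore lower limits, and the 0 counts of Mir199a-1 do not show absence.

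Summed over their lists, blood markers were low beside those of smooth muscle, endothelium and fibroblasts. Mir21a alone had 11680.5 and 15434.5 CPM of the fibroblast sums, so the comparison with fibroblasts rests mostly on that gene. The 4 white blood cell markers summed to 1478 and 1542 CPM and the 3 red blood cell markers to 493 and 400.3 CPM. By the same Fisher's exact test, 3 white blood cell markers were higher in replicate 2, and Mir155 was lower, at 955 and 807 CPM. Of the red blood cell markers 2 were lower, while Mir451a had 234 CPM in both libraries. The liver marker Mir122 had 309 and 105 CPM. The 6 neuron markers summed to 0.238 and 22.1 CPM, with 4 at 0 counts in both libraries and Mir9-3 at 1 and 82 counts. All 6 share 20-base windows with other hairpins, and reads that match several places are in no gene's count. Their levels are therefore lower limits, and the 0 counts do not show absence. The 9 muscle markers, with the 3 myosin-intron genes among them, summed to 13128 and 8964 CPM. The part of these cell types in the differences of Mir208a, Mir208b and Mir499 was not tested.

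The genes closest in level over both libraries, by Euclidean distance of log2(CPM + 1) over n = 2 libraries, were for Mir208a Mir92-1 (distance 0.07), Mir542 (0.24) and Mir320 (0.33). For Mir208b they were Mir27b (0.41), Mir674 (0.61) and Mir499 itself (0.66). For Mir499 they were Mir27b (0.27), Mir127 (0.42) and Mir28a (0.53). Mir92-1, of the cluster that begins with Mir17, had 1995 and 1237 CPM, and Mir27b had 5797 and 3842 CPM. Mir674 was nearly level, with a log2 ratio of -0.06, and Mir127 had the opposite sign, at 0.27. These genes were picked for closeness in both libraries, so their ratios are no independent result.

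By mean CPM, Mir499 stood at rank 33 between Mir127 and Mir27b (means of 5349 ± 707 and 4819 ± 1383 CPM). Mir208b, at rank 37, stood between Mir379 (4147 ± 703 CPM) and Mir214 (3812 ± 4061 CPM). Mir208a, at rank 59, stood between Mir195a (1781 ± 1901 CPM) and Mir320 (1669 ± 216 CPM).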

How the data were processed

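The 2 microRNA sequencing libraries from mouse heart were treated as 1 group. The authors deposited raw read counts per miRNA gene, aligned to mm10 with GENCODE M21 per the file headers deposited with the tables; the aligner is not given in the sources used here. The counts on the gene's strand (column 3) were used, without the 4 summary lines that name no gene (the multi-mapped line alone held 38.1% and 42.3% of reads). The strand of each column was read from the values. Reads of CAST alleles were not examined separately.

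CPM, log2(CPM + 1), Fisher's exact tests with Benjamini-Hochberg adjustment at 0.05 and binomial or Poisson intervals were computed with SciPy 1.17.1. Fisher's exact test and the log2 ratio were checked on simulated counts that held counting error only. That check does not cover the spread between real libraries, and the intervals were not checked in this way. Intervals of changes in a ratio are normal intervals of the log odds ratio. Genes with 10 or more counts over both libraries were tested (441). This test compares 2 libraries, not conditions, and a quasi-likelihood fit in edgeR was not possible, since a single pair of libraries leaves no residual degrees of freedom. edgeR 4.0.16 gave TMM factors, from all genes, and the exact test, DESeq2 1.42.0 size factors, and RNAfold 2.7.2 the energies. The alternatives were scaling, strand, denominator, count minimum, pseudocount, hairpin length, the test and leaving out a replicate.

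The genes named are the members, the muscle list, the 3 nearest genes to each member, its neighbours in rank, and cell type markers. The members and lists were chosen with earlier results of these data known. Mir9-3 was named after its value was seen.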

Additional observations from a re-analysis of the deposited data

How the results depend on the processing

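Mir208a and Mir208b stayed lower in replicate 2 under every scaling, strand, denominator, count minimum and pseudocount tried. Mir499 lost its call with TMM scaling (log2 ratio -0.018) and DESeq2 scaling (-0.010). With TMM factors taken only from genes that reach 10 counts in both libraries, an alternative chosen after seeing the data, it kept the call at -0.18. In edgeR's exact test the log2 ratios were -0.43 for Mir208a, -0.50 for Mir208b and -0.018 for Mir499, none called (adjusted p of 1), and 2 genes in place of 251 differed. With all reads of the table as denominator the means were 715 CPM for Mir208a, 1737 CPM for Mir208b and 2215 CPM for Mir499, and with counts taken without regard to strand they were 2204, 5356 and 6824 CPM, since both choices change the denominator. Counted per base of hairpin, Mir208a to Mir208b came to -1.38 on the log2 scale. Leaving out a replicate gave 1259 to 2091 CPM for Mir208a, 2965 to 5169 for Mir208b and 4633 to 5794 for Mir499. The log2 ratios within a library then ran from -1.31 to -1.24 for Mir208a to Mir208b, from 1.47 to 1.88 for Mir499 to Mir208a and from 0.16 to 0.64 for Mir499 to Mir208b. No paired analysis was possible because the study has a single group. Each of the 3 genes had 4788 or more counts in a library.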
